A study of Mus musculus with 8 samples.

Results

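The matrix metalloproteinase (Mmp), tissue inhibitor of metalloproteinases (Timp) and Adamts genes were followed in mouse periureteric cells whose Tbx18 gene was intact on 1 allele, lost, or joined by an activating form of its protein. All 60-base probes whose gene name in the scanner files began with Mmp, Timp or Adamts and a number, and that were on both array designs, were taken. This gave 66 probes for 46 genes out of 39429 probes for 30139 named genes. They comprised 23 Mmp genes (29 probes), 4 Timp genes (5 probes) and 19 Adamts genes (32 probes). The name rule used no measured value, but the members were chosen with earlier results of these data known.

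Matrix metalloproteinases are zinc-dependent enzymes that cut collagens, other matrix proteins and cell-surface proteins, and most are made as inactive precursors. TIMPs are small secreted proteins that block their active site. ADAMTS enzymes are secreted relatives with thrombospondin repeats. One branch cleaves versican and aggrecan, another trims procollagens, and several have few known substrates. In the embryonic kidney such enzymes act where the ureteric bud grows into and branches within mesenchyme.

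The RNA came from GFP-positive cells sorted from kidney rudiments of NMRI embryos at stage E11.5, in pools of about 100000 cells of both sexes combined from successive sorts. In 2 Tbx18VP16 samples the embryos carried a Cre allele and 1 intact allele of Tbx18 together with a transgene in the X-linked Hprt gene. Per the design text, this transgene holds a CAG promoter, a fusion of Tbx18 to VP16 (a viral transcriptional activation domain) and GFP. In 3 Tbx18 null samples both Tbx18 alleles were replaced by GFP, and in 3 control samples 1 allele was GFP and the other intact. Tbx18VP16 cells were thus marked by GFP from the transgene and null and control cells by GFP from the Tbx18 locus, and every group carried at least 1 altered Tbx18 allele. The labels do not say that pools came from separate litters, so p-values measure the spread between pools. In bulk samples, fewer cells of a type and less RNA per cell cannot be told apart.

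Each sample was hybridised to 1 array of 1 colour, so the number of arrays limits the precision. A level below is the log2 processed signal of a probe minus the 75th percentile of its array. A probe counted as well above background on an array when the scanner software set that flag for at least 0.5 of its spots. Between 60.1% and 66.0% of all probes passed on an array, and no spot was saturated. Null 1, null 2, control 1 and control 2 shared a slide, null 3 and control 3 shared another and were labelled from 10 ng of RNA in place of 20 ng, and both Tbx18VP16 arrays were on a slide of their own, of another array design. Genotype, array design, slide and GFP source therefore cannot be told apart in any Tbx18VP16 comparison. Tbx18 had levels of 1.34 and 1.06 in Tbx18VP16 cells, -2.40, -1.34 and -2.35 in null cells and -0.02, 1.20 and 1.04 in control cells. It was lower in all null samples than in any control (difference -2.77 ± 0.44 SE, limma adjusted p = 0.118, and 0.0314 with a replicate block), as the labels say. All 10 markers of periureteric mesenchyme were well above background on all 8 arrays. Markers of platelets and megakaryocytes differed with the group. Their summed level (log2 of the sum of 8 genes) was 2.20 to 3.17 in Tbx18VP16 cells, -2.11 to 0.80 in null cells and -2.30 to -2.01 in control cells, with all 8 markers well above background on both Tbx18VP16 arrays and 2 to 4 on control arrays. Markers of nephron progenitors also differed, at 5.89 to 5.97 in Tbx18VP16 cells, 5.64 to 6.01 in null cells and 4.87 to 5.47 in control cells. Ureteric epithelium markers were at 2.04 to 2.26 in Tbx18VP16 cells, 1.73 to 3.76 in null cells and 1.33 to 1.99 in control cells. In each pool number they were higher in null than in control cells. Macrophage and leukocyte markers were at 0.25 to 0.74 in Tbx18VP16 cells, 0.57 to 1.38 in null cells and 0.17 to 0.53 in control cells. This sum is set mostly by the brightest genes. The mean of the log2 levels of the same markers was -4.04 to -3.48 in Tbx18VP16 cells, -4.89 to -2.88 in null cells and -5.27 to -4.71 in control cells. By that mean Tbx18VP16 cells lay above control cells without overlap. Endothelial markers were at -0.14 to -0.025 in Tbx18VP16 cells, 1.24 to 3.33 in null cells and 0.59 to 1.29 in control cells. Markers of neural crest and neurons were at 0.17 to 0.40 in Tbx18VP16 cells, 1.07 to 1.22 in null cells and 0.77 to 1.02 in control cells. Markers of periureteric mesenchyme were at 6.95 to 7.18 in Tbx18VP16 cells, 6.71 to 7.37 in null cells and 7.48 to 7.72 in control cells. Summed erythroid markers reached 8.57 on 1 null array, against 1.54 to 2.85 in Tbx18VP16 cells and 2.44 to 4.35 in control cells. The part of these cell types in the results below was not tested.

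A cluster of 10 Mmp genes lay within 415 kb of chromosome 9 (mm9, first probe base 7282762, last probe base 7697700), and 8 of the 10 were well above background on no array. These were Mmp13, Mmp12, Mmp1b, Mmp3, Mmp1a, Mmp8, Mmp27 and Mmp20. The bases before the transcription start are shown for 4 genes of the cluster, because 7 of its 10 windows held both motifs marked below. The 4 were taken from these 7, so their holding both motifs was fixed by that choice. The name rule for the members did not use the motifs. A motif of T-box proteins, given further below, was also searched and was in no cluster window. RefSeq promoter windows (GRCm38.p6, 250 bases before to 50 after a start) were found for 32 of the 46 genes. Capitals mark the AP-1 motif TGANTCA and the TATA box TATAAA in the 100 bases before the start, written 5′ to 3′ on the gene's strand. The windows are chr9:7272414-7272513 for Mmp13, chr9:7445722-7445821 for Mmp3, chr9:7502242-7502341 for Mmp10 and chr9:7691990-7692089 for Mmp7, all on the plus strand.
Mmp13: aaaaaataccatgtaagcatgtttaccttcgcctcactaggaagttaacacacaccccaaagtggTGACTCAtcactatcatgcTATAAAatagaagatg
Mmp3: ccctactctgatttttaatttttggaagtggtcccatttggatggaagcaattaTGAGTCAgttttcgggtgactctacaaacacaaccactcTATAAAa
Mmp10: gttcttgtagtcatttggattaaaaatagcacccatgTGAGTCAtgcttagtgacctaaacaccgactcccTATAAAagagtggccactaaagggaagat
Mmp7: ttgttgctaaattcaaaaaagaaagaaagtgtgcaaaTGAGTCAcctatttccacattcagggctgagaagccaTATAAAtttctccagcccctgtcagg
The AP-1 motif, which reads the same on both strands, was in 7 of the 10 cluster windows and in 0 of the 22 other member windows. It was in 7.81% of all 32851 promoter windows. Mmp1a, Mmp1b and Mmp20 were the other cluster genes with it, and Mmp12 had it before the other of its listed starts. TATAAA on the gene's strand was in the same 7 cluster windows, in 2 other member windows (Adamts1 and Mmp21) and in 8.32% of all windows. G and C made up 37.2% to 45.6% of the 250 upstream bases in the cluster, 53.6% to 79.2% in the other members and 52.4% at the median of all windows. A motif match here is a description of letters and no evidence of binding.

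The Mmp genes were mostly dim and the Timp and Adamts genes mostly measured. Of the 46 genes, 21 were well above background on all 8 arrays, 11 on some arrays and 14 on none. All 4 collagenases (Mmp1a, Mmp1b, Mmp8 and Mmp13), which cut fibrillar collagen, were among the 14. The gelatinase Mmp9 was among them as well, as were the stromelysin Mmp3, the membrane-anchored Mmp25 and Adamts13 (which cuts von Willebrand factor). So were 6 of the 7 Mmp genes grouped here as other secreted (Mmp12, Mmp19, Mmp20, Mmp21, Mmp27 and Mmp28). On all 8 arrays were Mmp2, Mmp11, Mmp14, Mmp15, Mmp17 and Mmp23, Timp1, Timp2 and Timp3, and 12 Adamts genes. For Mmp10, 0 Tbx18VP16, 3 null and 2 control arrays were well above background, and for the matrilysin Mmp7 only 1 null array was. The bar chart of detection gives these counts by role. For a dim probe an array gives only an upper bound, so these counts say nothing on small amounts of RNA.

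**Figure D1:**
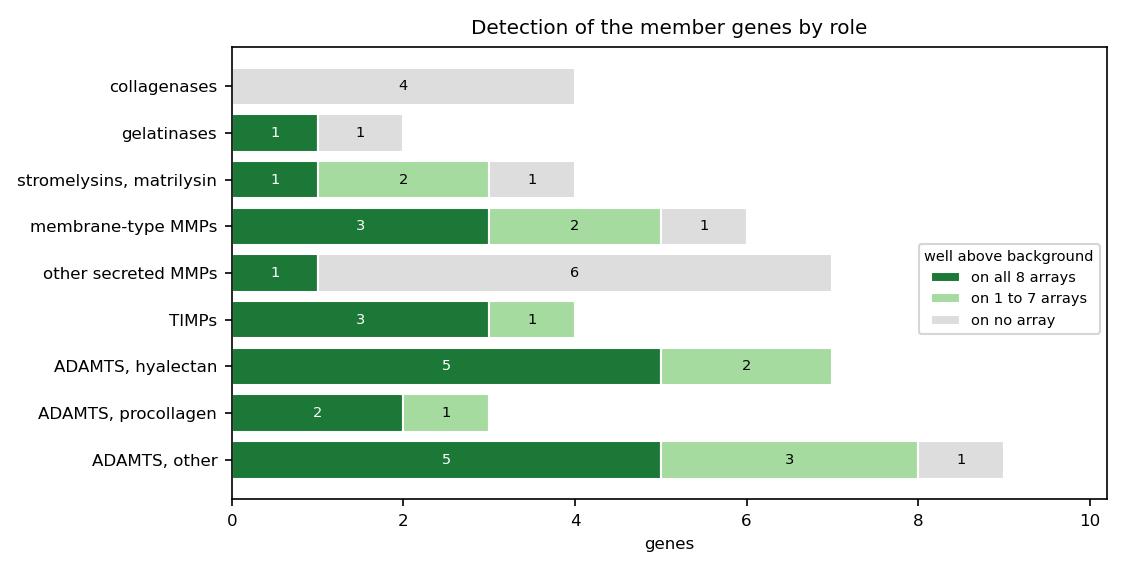
Number of genes (x axis) in each role group (y axis) that were well above background on all 8 arrays, on 1 to 7 arrays or on no array. Collagenases and most other secreted Mmp genes were on no array, while 21 of the 46 genes were on all 8.

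Against control, Tbx18VP16 cells had higher Adamts17 and lower Adamts20, Adamts9, Adamts1 and Mmp24. In total 31 of the 46 genes could be tested, 13 with a higher and 18 with a lower mean, and 5 passed the adjusted p threshold of 0.05 (1 higher, 4 lower). Of these, Adamts20 and Mmp24 were not well above background on either Tbx18VP16 array. Over all 20599 genes tested 5.32% passed (2.04% higher and 3.28% lower). The median difference was -0.20 over the member genes and -0.14 over all genes, so that a difference near -0.14 is the middle of the distribution. Arrays of the groups did not overlap for 14 member genes (7 above and 7 below), against 47.6% of all genes (17.4% above and 30.3% below).

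Adamts17, an ADAMTS enzyme altered in human syndromes of short stature, was highest in Tbx18VP16 cells by the probe that represents the gene. Its levels were -1.11 and -0.47 in Tbx18VP16 cells, -2.97, -2.67 and -1.69 in null cells and -3.60, -4.14 and -3.06 in control cells. Both Tbx18VP16 values lay above all 6 others, and all null values lay above all control values. The difference from control was 2.81 ± 0.46 (SE; limma, adjusted p = 0.0160), and that from null was 1.65 ± 0.46 (adjusted p = 0.0908). A second probe of the same transcript, 150035 bases upstream, gave 0.64 against control (adjusted p = 0.183 over all probes) and -0.11 against null. It read -5.57 and -5.43 in Tbx18VP16 cells, -5.38, -5.41 and -5.40 in null cells and -5.85, -6.15 and -6.43 in control cells, above background on no control array.

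Of the 7 ADAMTS genes whose enzymes cleave versican and related proteoglycans, Adamts9, Adamts1 and Adamts20 passed the threshold, all lower in Tbx18VP16 cells than in control cells. Of the 7, 6 had a lower mean (Adamts8 only by 1 of its 2 probes), where 59.2% of all genes had one, and the median difference was -0.80. The branch as a whole was not tested, and Adamts20 entered it only through control arrays. Adamts20, which is mutated in belted mice and acts in the spread of pigment cell precursors, had levels of -7.90 and -7.62 in Tbx18VP16 cells, -6.31, -6.69 and -7.02 in null cells and -5.58, -5.87 and -5.81 in control cells. The 3 groups did not overlap, with Tbx18VP16 lowest and control highest. Only 2 control arrays were well above background, and the gene passed the filter through them alone. With Tbx18VP16 readings raised to the weakest signal above background on their arrays, it was 1.46-fold lower than in control cells. This fold is no firm bound. An Adamts5 probe read -5.68 in Tbx18VP16 replicate 1 without being above background, higher than the Adamts20 control mean of -5.76. The fitted difference of -2.01 ± 0.27 (SE; limma, adjusted p = 0.00854) rests on Tbx18VP16 readings not above background.

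Adamts9, an enzyme of the same branch that mouse heart development needs, had levels of 0.81 and 0.58 in Tbx18VP16 cells, 2.45, 1.84 and 1.76 in null cells and 2.74, 1.95 and 1.96 in control cells. Both Tbx18VP16 values were below all others, while null and control overlapped. It fell by 1.53 ± 0.34 against control (SE; limma, adjusted p = 0.0415), and the difference from null was -1.33 ± 0.34 (adjusted p = 0.0709). A second probe, annotated to another transcript and 20205 bases upstream, gave -0.52 against control (adjusted p = 0.685 over all probes).

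Adamts1, whose loss in mice causes kidney and ureter defects, had levels of 1.92 and 1.54 in Tbx18VP16 cells, 2.55, 2.25 and 2.05 in null cells and 3.01, 2.79 and 2.73 in control cells. The 3 groups did not overlap, with null cells between the others. It fell by 1.12 ± 0.25 against control in Tbx18VP16 cells (SE; limma, adjusted p = 0.0457). Of the rest of this branch, Adamts8 had levels of -4.72 and -5.00 in Tbx18VP16 cells, -3.43, -4.41 and -4.55 in null cells and -3.50, -4.32 and -4.34 in control cells, and differed by -0.80 ± 0.41 from control (adjusted p = 0.288). Adamts4, Adamts5 and Adamts15, which also cut aggrecan, gave 0.21, -0.45 and -0.20 and did not pass.

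The promoters of the 3 genes that passed in this branch are shown beside that of Adamts17, the gene that passed with a higher level. Adamts20 entered the tests only through control arrays, where it was highest, so its direction cannot be told apart from that filter. The windows are the 100 bases before the start in GRCm38.p6, chr16:85803114-85803213 for Adamts1, chr6:92943535-92943634 for Adamts9 and chr15:94404351-94404450 for Adamts20, all on the minus strand, and chr7:66839635-66839734 on the plus strand for Adamts17. Capitals mark TATAAA, which Adamts1 alone of these held.
Adamts1: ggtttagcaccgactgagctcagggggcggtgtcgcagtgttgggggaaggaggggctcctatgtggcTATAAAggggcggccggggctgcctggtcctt
Adamts9: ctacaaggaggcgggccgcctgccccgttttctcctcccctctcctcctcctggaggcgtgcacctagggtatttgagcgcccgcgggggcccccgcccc
Adamts20: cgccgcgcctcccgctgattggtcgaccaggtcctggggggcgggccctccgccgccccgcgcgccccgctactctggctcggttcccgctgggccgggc
Adamts17: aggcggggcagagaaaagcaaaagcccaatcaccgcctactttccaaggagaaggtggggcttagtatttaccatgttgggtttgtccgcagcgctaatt
G and C made up 65.6% of the 250 upstream bases for Adamts1, 71.2% for Adamts9, 76.4% for Adamts20 and 54.4% for Adamts17. The letters GGTGTGA, which T-box proteins bind, were searched on both strands of the 300-base windows. They were in 3.98% of all windows and in 1 member window, that of Mmp21, which was dim on all arrays. The search says nothing of binding elsewhere.

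Among the membrane-type Mmp genes, whose enzymes sit on the cell surface, Mmp24 alone passed. Mmp24, best known from brain, had levels of -6.42 and -6.74 in Tbx18VP16 cells, -3.89, -5.13 and -5.27 in null cells and -3.89, -5.04 and -4.63 in control cells. It was not well above background on either Tbx18VP16 array and was so on all 6 others. A second probe of the same transcript, 1811 bases downstream, was well above background on no array. By the first probe the fitted difference from control was -2.06 ± 0.48 (SE; limma, adjusted p = 0.0496). With Tbx18VP16 readings raised to the weakest signal above background on their arrays, it was 3.43-fold lower than in control cells. The summed markers of neural crest and neurons were lower in Tbx18VP16 cells too, and their part in this result was not tested. Mmp14, which activates the Mmp2 precursor on the cell surface, had levels of 1.35 and 0.85 in Tbx18VP16 cells, 0.67, 2.27 and 0.00 in null cells and 0.68, 2.48 and 0.75 in control cells. Its target Mmp2, a gelatinase, had levels of 2.29 and 2.42 in Tbx18VP16 cells, 2.26, 2.50 and 2.23 in null cells and 2.40, 2.93 and 2.48 in control cells. Groups overlapped for both genes. Neither passed against control, with differences of -0.20 for Mmp14 (95% interval -1.90 to 1.50) and -0.25 for Mmp2 (95% interval -0.82 to 0.32). Mmp15, Mmp16 and Mmp17 gave 0.10, 0.30 and 0.31, and the stromelysin-group genes Mmp10 and Mmp11 gave -0.26 and -0.35.

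Of the inhibitors, Timp3 differed most and narrowly missed the threshold. Timp3, which binds to the matrix and also blocks several ADAMTS enzymes, had levels of 2.72 and 2.46 in Tbx18VP16 cells, 1.52, 0.33 and 0.77 in null cells and 1.54, 0.07 and 0.02 in control cells. Both Tbx18VP16 values were above all others, and the null and control pools numbered 1 were each the highest of their group. The differences were 2.05 ± 0.52 from control (SE; limma, adjusted p = 0.0633) and 1.72 ± 0.52 from null (adjusted p = 0.110). Without control replicate 1 the difference from control was 2.55 (adjusted p = 0.0202). Timp3 passed under 5 of 15 alternatives, that one included, and missed without control replicate 2 and without control replicate 3. Timp4 had levels of -3.94 and -4.10 in Tbx18VP16 cells, -5.00, -5.30 and -6.22 in null cells and -4.62, -4.65 and -4.91 in control cells. No groups overlapped, with Tbx18VP16 highest and null lowest. It differed by 0.70 ± 0.36 from control (adjusted p = 0.291) and by 1.48 ± 0.36 from null (adjusted p = 0.0641).

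Timp1, which inhibits soluble Mmp enzymes better than membrane-bound ones, had levels of 0.48 and 0.75 in Tbx18VP16 cells, 1.72, 0.93 and 0.85 in null cells and 1.71, 1.12 and 1.39 in control cells. Tbx18VP16 values lay below all others, with a difference from control of -0.79 ± 0.33 (SE; limma, adjusted p = 0.201). Timp2, which links Mmp14 to the Mmp2 precursor, had levels of 3.14 and 3.0 in Tbx18VP16 cells, 3.46, 2.26 and 1.68 in null cells and 3.66, 2.92 and 3.24 in control cells. The groups overlapped, and the difference from control was -0.21 ± 0.49 (adjusted p = 0.832).

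**Figure D2:**
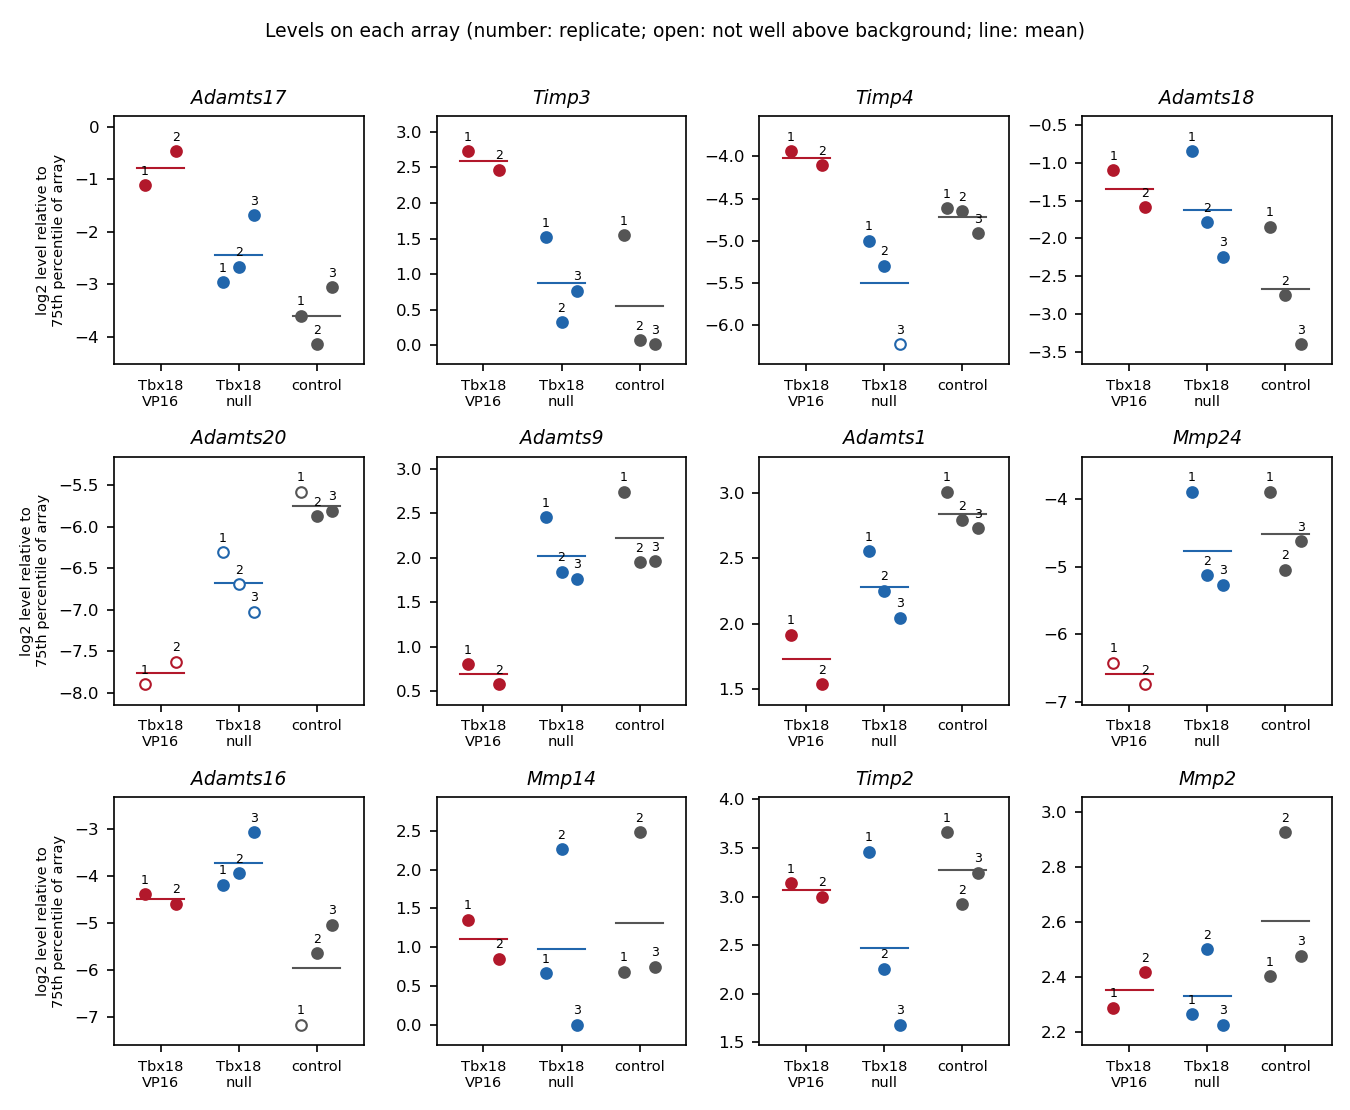
Log2 level relative to the 75th percentile of the array (y axis, a scale of its own in each panel) for 12 genes, with 1 point per array, the replicate number beside it and a line at the group mean; open points were not well above background. Adamts17 and Timp3 are highest and Adamts20, Adamts9, Adamts1 and Mmp24 lowest in the 2 Tbx18VP16 samples, and Mmp14 is highest in the pools numbered 2 of null and control.

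The remaining ADAMTS genes differed in both directions without passing. Adamts16, studied for blood pressure in rats, had levels of -4.40 and -4.60 in Tbx18VP16 cells, -4.19, -3.95 and -3.07 in null cells and -7.17, -5.66 and -5.04 in control cells. Adamts18, linked to eye disease in humans, had levels of -1.10 and -1.59 in Tbx18VP16 cells, -0.85, -1.78 and -2.24 in null cells and -1.84, -2.75 and -3.39 in control cells. For both genes the Tbx18VP16 arrays lay above all controls, by a mean of 1.46 ± 0.60 for Adamts16 (SE; limma, adjusted p = 0.199) and 1.32 ± 0.53 for Adamts18 (adjusted p = 0.190). Adamts12, which can cut cartilage oligomeric matrix protein, had levels of -6.34 and -7.55 in Tbx18VP16 cells, -5.25, -5.78 and -5.81 in null cells and -5.30, -5.21 and -6.31 in control cells. It was above background on no Tbx18VP16 array. The fitted difference from control was -1.34 ± 0.46 (adjusted p = 0.137). With Tbx18VP16 readings raised to the weakest signal above background, it was 1.62-fold lower than in control cells. The procollagen-trimming Adamts2, Adamts3 and Adamts14 gave 0.61, -0.43 and -0.32.

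The 5 calls against control rested on few arrays. Without Tbx18VP16 replicate 1 or without Tbx18VP16 replicate 2, 0 member genes passed, when 81 and 58 of all genes did. Without control replicate 1, Adamts17, Adamts20 and Timp3 passed. Without control replicate 2 only Adamts20 passed (adjusted p = 0.0339), and without control replicate 3 Adamts17 and Adamts20 passed. With slide as a random block Adamts17 and Adamts20 passed. All these Adamts20 calls rest on Tbx18VP16 readings not above background, so they do not set it apart from the other genes. With a stricter filter on dim probes Adamts20 was not tested. The sign of the difference was the same for all 5 genes under each alternative run. Adamts17 passed under 12 of 15 alternatives, Adamts9 under 9, Adamts1 under 6 and Mmp24 under 4. Adamts20 passed under 11 of the 14 that tested it.

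Probes of 1 gene did not always give the same difference, and 8 genes had 2 tested probes in the comparison with control. The other probe differed in sign for Adamts8, and in whether it passed for Adamts8, Adamts9, Adamts17 and Adamts18. The first 30 bases of the probes of Adamts8 and Adamts18 are given, with the probe that represents the gene first. In mm9 they start at chr9:30751050-30751079 and chr9:30770384-30770413 on the plus strand for Adamts8, and at chr8:116222750-116222779 and chr8:116368712-116368741 on the minus strand for Adamts18.
Adamts8 A_55_P2046550: cagaagactcccgcaaagtgccaccaccct
Adamts8 A_55_P2005833: acccatttcaagtatttatgcaaatatgtc
Adamts18 A_51_P283968: ccatagggtttaaagaatggacagatagcc
Adamts18 A_65_P08727: gctctaatggaactcgttctttcgtgtttt
Both Adamts8 probes are annotated to the same transcript, at base 902 and at base 3572 of it. The downstream probe read -5.49 and -3.81 in Tbx18VP16 cells, -7.86, -7.51 and -6.55 in null cells and -7.44, -7.08 and -7.79 in control cells. It was well above background on both Tbx18VP16 arrays and on no other. It passed the filter through the Tbx18VP16 arrays alone. With control readings raised to the weakest signal above background, it was 3.44-fold higher in Tbx18VP16 cells than in control cells. The fitted difference of 2.79 (limma, adjusted p = 0.0355 over all probes) rests on control readings not above background. The other probe gave -0.80 (adjusted p = 0.311), and no direction is given for Adamts8. For Adamts18 the second probe, annotated to another transcript, read -2.58 and -2.67 in Tbx18VP16 cells, -3.23, -3.94 and -4.28 in null cells and -4.48, -4.70 and -4.13 in control cells. It differed by 1.81 from control (adjusted p = 0.0298), with the same sign as the first (1.32, adjusted p = 0.210).

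**Figure D3:**
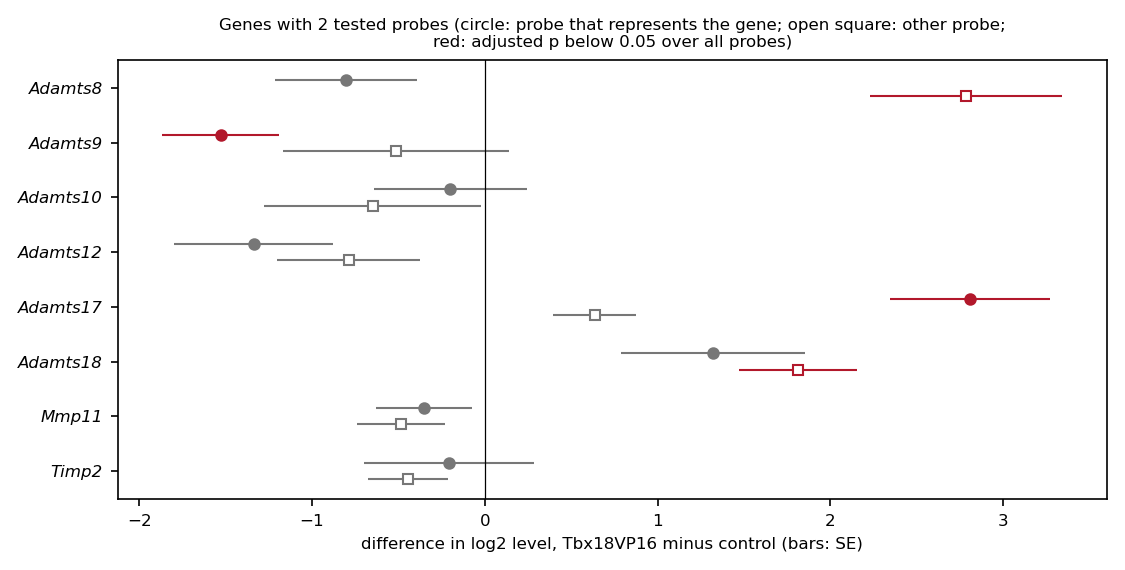
Difference in log2 level, Tbx18VP16 minus control (x axis, bars are SE), for the 8 genes with 2 tested probes; circles are the probe that represents the gene, open squares the other one, and red marks an adjusted p below 0.05 over all probes. The Adamts8 probes lie at -0.80 and 2.79, and the 2 Adamts17 probes are both above 0 at 2.81 and 0.64.

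Set against null cells, Tbx18VP16 cells had 0 member genes past the threshold among 31 tested, while 3.66% of all genes passed (1.17% higher and 2.49% lower). The limma fit gave 8 member genes an unadjusted p under 0.05, and 3 passed with quantile normalisation and 2 in the authors' deposited values. The median difference was 0.12 over the member genes and -0.15 over all genes, with 18 member genes higher and 13 lower. Arrays did not overlap for 7 member genes above and 12 below, against 48.1% of all genes (16.2% above and 31.9% below). Both comparisons share the Tbx18VP16 arrays, so their values stand side by side and support nothing in each other.

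Timp4, Timp3 and Adamts17 had the largest positive differences from null among genes without overlap, at 1.48, 1.72 and 1.65. Adamts7, which cuts cartilage oligomeric matrix protein, followed with 0.94 ± 0.49 (SE; limma, adjusted p = 0.293). It had levels of -1.04 and -0.87 in Tbx18VP16 cells, -2.27, -1.48 and -1.93 in null cells and -2.57, -1.33 and -0.84 in control cells, so that Tbx18VP16 cells were above null cells and overlapped with control cells. The largest negative differences from null were those of Mmp24 (-1.82, adjusted p = 0.0785), Adamts12 (-1.33, adjusted p = 0.146), Adamts9 (-1.33) and Adamts20 (-1.09, adjusted p = 0.0688). With Tbx18VP16 readings raised as above, Mmp24 was 2.90-fold lower than in null cells. For Adamts20 neither group was well above background, so no fold is given. Timp1 differed by -0.56, Timp2 by 0.60, Mmp2 by 0.02 and Mmp14 by 0.13, and none of these passed. The second Timp2 probe gave -0.19. Against null, the second probes of Adamts17 and Adamts12 had the opposite sign, at -0.11 and 0.31, and that of Adamts9 gave -0.10. The second Adamts12 probe was well above background in neither group.

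**Figure D4:**
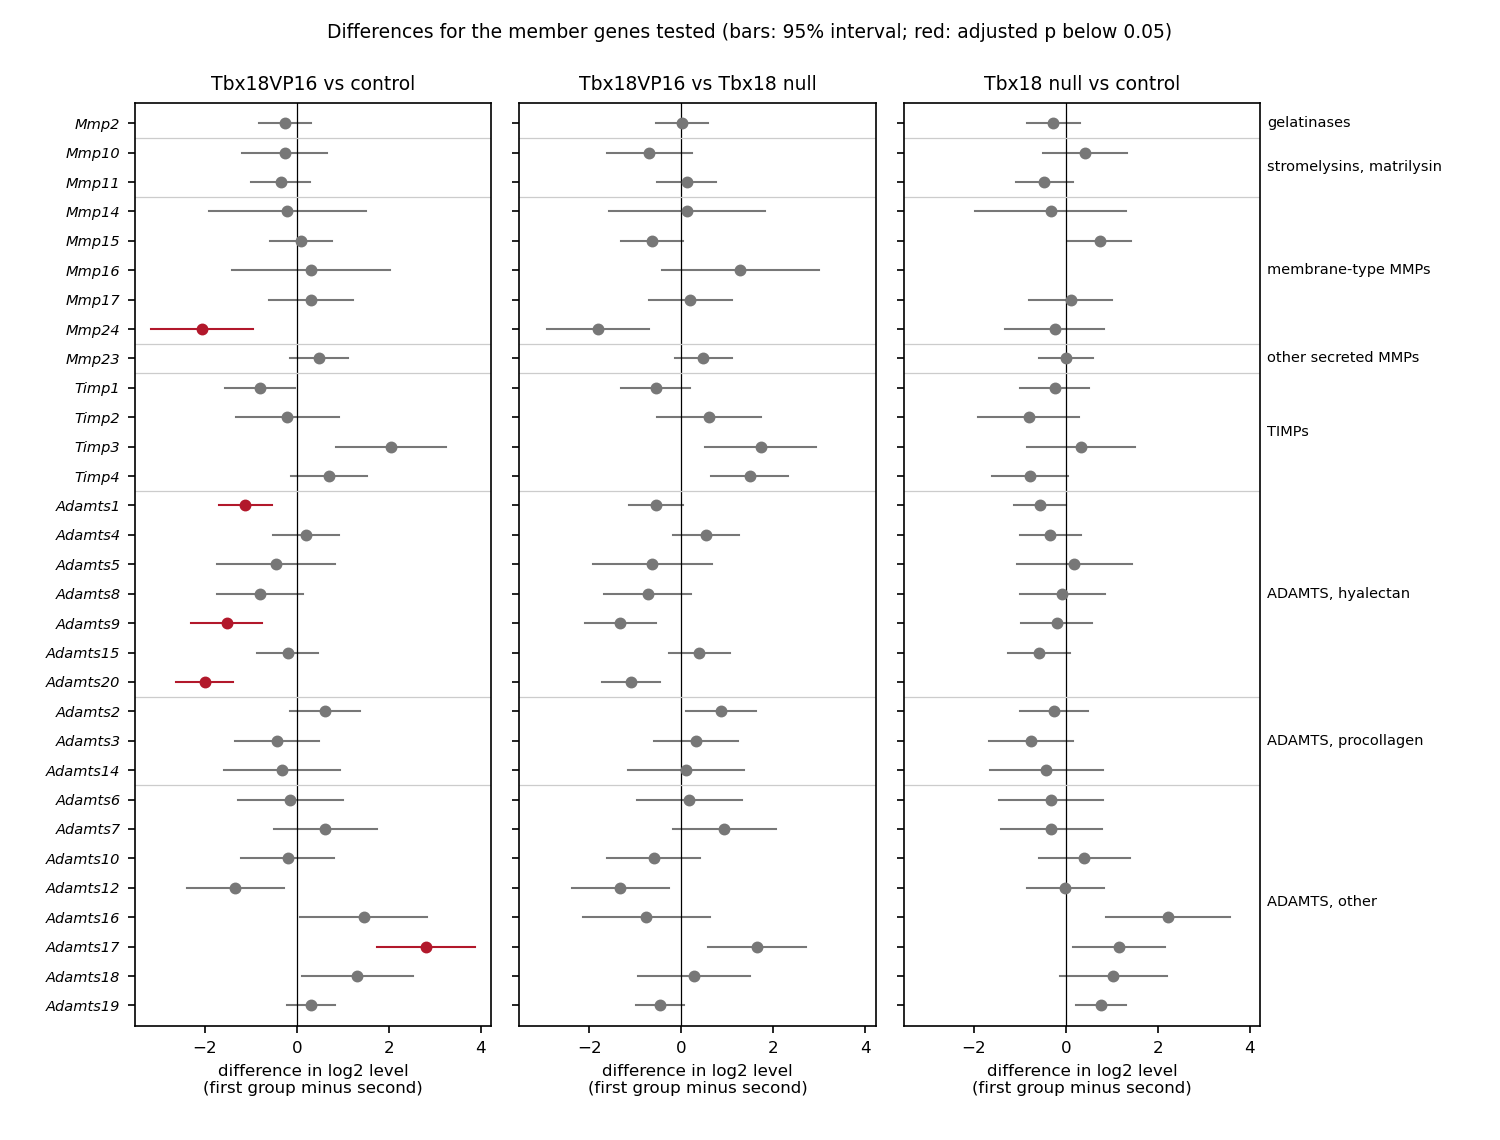
Difference in log2 level (x axis) for the member genes tested (y axis, by role) in 3 comparisons, first group minus second, with 95% intervals; red points passed an adjusted p of 0.05. Adamts17 stands at 2.81 and Adamts20, Adamts9, Adamts1 and Mmp24 between -2.06 and -1.12 in Tbx18VP16 against control, and no gene is red in the other panels.

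In Tbx18 null cells no member gene passed the threshold against control, and the 4 largest positive differences were those of Adamts16, Adamts17, Adamts18 and Adamts19. Of 29 genes tested 11 had a higher and 18 a lower mean (0% of all 19710 genes passed, with a smallest adjusted p of 0.0570). In the limma fit 4 member genes and 952 of all genes had an unadjusted p under 0.05. The median difference was -0.24 over the member genes and 0.01 over all genes. Arrays did not overlap for 4 member genes above and 2 below, against 7.75% of all genes (4.18% above and 3.58% below). With slide as a block, and on the first slide alone, 0 member genes passed. Levels of same-numbered null and control pools deviated together from their group means, and 1 member gene passed in a fit that blocked on it, where 0.964% of all genes did (0.492% higher and 0.472% lower).

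That gene was Adamts18, whose levels are given above. Null exceeded control by 0.99, 0.96 and 1.15 in the pools numbered 1, 2 and 3. The mean difference was 1.04 ± 0.50 (SE; limma, adjusted p = 1.0) without the block and had an adjusted p of 0.0480 with it. Over all probes, this probe missed with the block (limma, adjusted p = 0.0559). The second Adamts18 probe gave 0.62 (adjusted p = 0.456 with the block). In the pools numbered 3 that probe was lower in null (-4.28) than in control (-4.13). Adamts16 had the largest difference, 2.22 ± 0.57 (adjusted p = 0.410, and 0.0535 with the block), and its 3 null values were above all controls. It was not well above background on 1 control array. A second Adamts16 probe of the same transcript was well above background on no array. Adamts17 was higher by a mean of 1.16 ± 0.42 without overlap (adjusted p = 0.847, and 0.0958 with the block).

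Adamts19, linked to heart valve disease in humans, had levels of -0.70 and -0.67 in Tbx18VP16 cells, -0.03, -0.40 and -0.26 in null cells and -0.87, -1.17 and -0.92 in control cells. Null was above control without overlap, by 0.76 ± 0.23 (SE; limma, adjusted p = 0.597, and 0.0782 with the block). Mmp15, a membrane-type enzyme, had levels of -3.05 and -3.03 in Tbx18VP16 cells, -2.60, -2.18 and -2.43 in null cells and -3.36, -2.65 and -3.40 in control cells. Its difference of null from control was 0.74 ± 0.29 (adjusted p = 0.951, and 0.126 with the block). The 2 genes below control without overlap were Timp4 (-0.78 ± 0.35) and Adamts1 (-0.56 ± 0.24), with adjusted p of 1.0 for both, and 0.215 and 0.146 with the block. Timp1, Timp2 and Timp3 differed by -0.24, -0.81 and 0.33, Mmp2 by -0.27 and Mmp14 by -0.33, and none passed with or without the block. Adamts10, of which the second probe gave -0.57, differed by 0.40. Adamts20 and Mmp16 were too dim on these 6 arrays to be tested.

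Some members differed widely between pools of 1 genotype, and Mmp14 did so by pool number. It was at 2.27 and 2.48 in null and control pools numbered 2, and between 0.00 and 0.75 in the other pools of both. Among controls its SD was 1.02 (n = 3), against a median SD of 0.38 over all 19710 genes and 0.51 over the 29 members. Counted by pool number, 7 of the 29 members were higher in null in all 3 pools and 11 lower, against 19.1% and 17.4% of all genes. The 11 lower were Adamts1, Timp4, Adamts15, Adamts3, Mmp11, Timp2, Adamts4, Mmp2, Adamts14, Adamts9 and Mmp14.

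**Figure D5:**
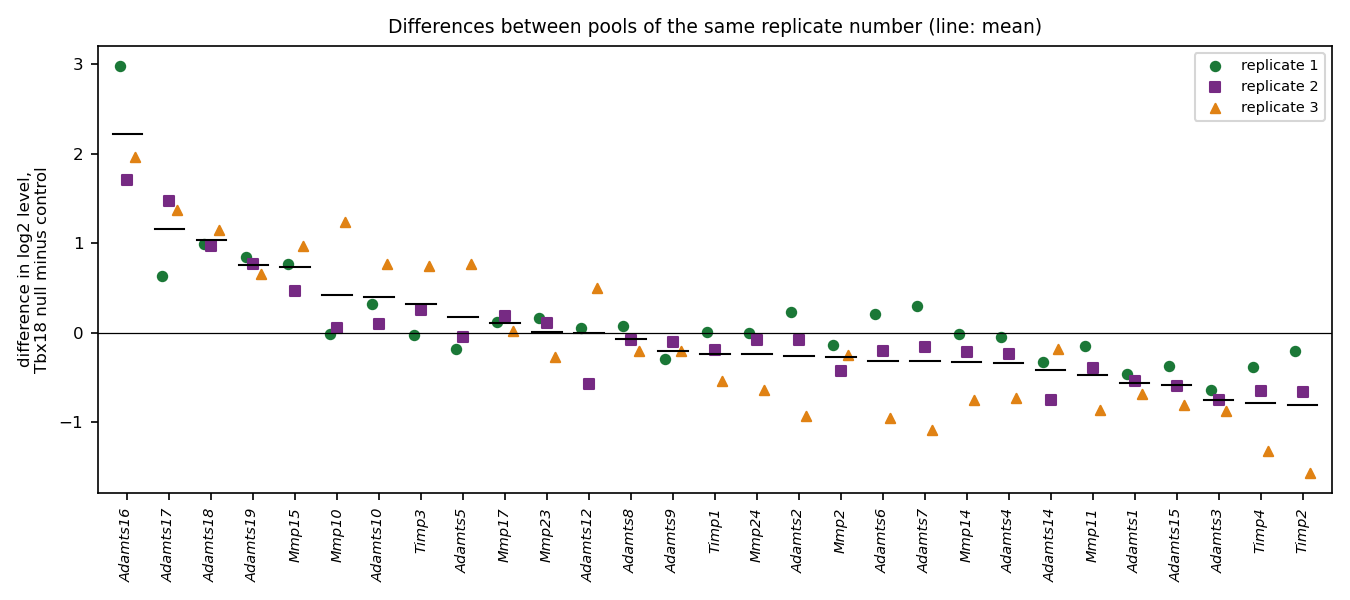
Difference in log2 level between null and control pools of the same replicate number (y axis, null minus control) for the 29 genes tested (x axis, ordered by the mean, drawn as a line). Adamts16, Adamts17, Adamts18, Adamts19 and Mmp15 are above 0 in all 3 pools and Adamts1, Timp4 and Timp2 below 0 in all 3, and replicate 3 is often the outermost point.

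Genes that work with these enzymes were counted on 8 lists of 62 genes that hold no member. Against control, 3 of 50 tested genes rose in Tbx18VP16 cells and 0 fell, a share of 6% beside 5.32% of all genes (2.04% higher and 3.28% lower). Plaur, the receptor that gathers urokinase on the cell surface, had levels of 1.03 and 1.01 in Tbx18VP16 cells, -0.76, -0.89 and -1.27 in null cells and -0.60, -0.67 and -1.0 in control cells. It rose by 1.78 ± 0.25 against control (SE; limma, adjusted p = 0.00976) and by 1.99 ± 0.25 against null (adjusted p = 0.0102). Pcsk6, a convertase that removes propeptides, had levels of -1.62 and -0.80 in Tbx18VP16 cells, -3.65, -3.51 and -2.90 in null cells and -3.89, -3.76 and -3.22 in control cells. It rose by 2.41 ± 0.36 against control (adjusted p = 0.0125) and by 2.15 ± 0.36 against null (adjusted p = 0.0249).

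Tll1, a tolloid-like enzyme that trims procollagens, had levels of 0.25 and -0.40 in Tbx18VP16 cells, -1.28, -1.71 and -1.83 in null cells and -2.54, -3.35 and -4.49 in control cells. The 3 groups did not overlap. It rose by 3.39 ± 0.52 in Tbx18VP16 cells against control (SE; limma, adjusted p = 0.0136), and null differed from control by 1.85 ± 0.48 (adjusted p = 0.415, and 0.0781 with the block). Of the substrates, versican (Vcan) had levels of 3.08 and 2.96 in Tbx18VP16 cells, 2.80, 3.55 and 3.56 in null cells and 3.93, 4.35 and 4.06 in control cells. All 5 altered samples were below the controls, by -1.10 ± 0.30 for Tbx18VP16 (adjusted p = 0.0755) and -0.81 ± 0.29 for null (adjusted p = 0.832). No gene of the 49 tested on the 8 lists passed between null and control, with or without the block, and in the limma fit the smallest unadjusted p were those of Spock2 (0.00173), Thbs2 (0.00383) and Tll1 (0.00619).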

How the data were processed

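The scanner files of 8 arrays (2 Tbx18VP16, 3 Tbx18 null, 3 control) hold, per the file headers, the intensity of each spot after background correction in Agilent Feature Extraction 10.7.3.1, and flags that mark outlying, saturated or well measured spots. The deposited value table is an intensity on a linear scale, with equal sorted values in all 8 columns and a floor of 10. How the authors made it was not given in the sources used here, and it was an alternative.

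Outlier spots (1.86% to 2.55%) were left out, the 4 spots of a probe averaged, and the log2 value taken minus the array's 75th percentile over the 39429 shared probes. The percentile itself was 975.9 to 2128.9. Probes well above background on at least 3 of 6 arrays (null against control) or 2 of 8 (Tbx18VP16 comparisons) were tested, with the probe of highest mean level for each gene. Tests used limma 3.58.1 (lmFit, eBayes; R 4.3.3), two-sided, with Benjamini-Hochberg adjustment over all genes tested and a threshold of 0.05. Null and control were compared on their 6 arrays, and Tbx18VP16 in a fit of 3 group means on all 8. A fold with raised readings divides the brighter group's mean by a mean for the dim group. In the latter each array enters with the probe's signal or, where that is smaller, with the weakest signal that the array measured above background. Some brighter probes were not above background on the same array, so these folds are no strict lower limits. The fits were tested on simulated data. Probe coordinates are those of the files (mm9).

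Deviations from the group means correlated at 0.827, 0.708 and 0.430 between null and control pools of the same number and at -0.751 to 0.316 between others, so the numbers were taken to pair those pools and a fit with the number as a block stands beside the other where it changes a call. Alternatives were other scalings, backgrounds, filters and blocks, the deposited values, every probe tested, and each array left out. Named genes are those past the threshold, the 4 largest rises and falls without overlap, Mmp2, Mmp14 and all Timp genes in each comparison, and for other gene lists up to 3 of smallest p. The members and lists were chosen with earlier results of these data known.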

Additional observations from a re-analysis of the deposited data

How the results depend on the processing

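For null against control, 0 member genes passed under 16 of 17 alternatives, single arrays left out included, and 1 with the replicate block. Over all genes this comparison gave 0 calls, against 190 with the replicate block, 71 in the fit of all 8 arrays, 14 with a stricter filter, 6 with the slide block and 0 to 4 with 1 array left out. For Tbx18VP16 against control, 5 member genes passed, against 3 with no filter on dim probes, 2 with slide as a random block, 10 with the replicate block and 0 to 3 with 1 array left out. The Tbx18VP16 numbers share no slide with the other groups and were not taken as pairs. Over all genes 1095 passed (38.4% higher), 625 with normexp background, 3640 with the replicate block, 1129 (50% higher) in the deposited values and 58 to 910 with 1 array left out. For Tbx18VP16 against null, 0 member genes passed, against 3 with quantile normalisation, 2 in the deposited values, 8 with the replicate block and 0 to 1 with 1 array left out. Over all genes 753 passed (32.0% higher), 769 (46.0% higher) with quantile normalisation, 786 (49.7% higher) in the deposited values, 404 with normexp background, 432 on the arrays of the 2 groups, 3285 with the replicate block and 11 to 632 with 1 array left out. Quantile normalisation moved the median difference of all genes from control to -0.02, and Adamts1, Adamts9, Adamts17 and Adamts20 passed with it, while Mmp24 missed (adjusted p = 0.0582) and Timp3 passed (0.0446). With normexp background Adamts20 (-0.89, adjusted p = 0.136) and Mmp24 (-1.02, 0.148) missed.

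Among the member genes named, only Mmp14 and Mmp2, which passed under no alternative run, changed sign. With 1 array left out, Mmp14 ranged from -0.97 to 0.26 for null against control, from -0.51 to 0.39 for Tbx18VP16 against control and from -0.36 to 0.77 for Tbx18VP16 against null, where Mmp2 ranged from -0.042 to 0.107. With the replicate block Tbx18VP16 against null gave -0.26 for Mmp14 and -0.035 for Mmp2. The cause of these changes was not tested. For genes above background on no array, and for the Tbx18VP16 levels of Adamts20, Mmp24 and Adamts12, the readings give no exact level.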

Other observations

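Some dim probes were well above background on only 1 or 2 arrays and were noticed after their values were seen. The second Adamts4 probe read -4.14 and -6.65 in Tbx18VP16 cells, -6.91, -8.06 and -7.45 in null cells and -7.38, -7.50 and -6.28 in control cells, and was well above background only in Tbx18VP16 replicate 1. Mmp7 read -5.66 in null replicate 2, the only array on which it was well above background, and between -7.96 and -5.76 on the others. Mmp16 was well above background in 1 Tbx18VP16 and 1 control sample, with levels of -5.61 and -6.89 in Tbx18VP16 cells, -7.94, -6.33 and -8.33 in null cells and -7.52, -5.54 and -6.59 in control cells.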
